A study of Mus musculus with 6 samples.

Results

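The genes described here are Ypel2, Ypel3, Ypel5, Hbp1, Ccng2, Klhl24, Bcl6, Pik3ip1 and Cited2, a group linked in the literature to FoxO transcription factors and to exit from the cell cycle. All 9 were found as single rows among 22988 rows of gene symbols. They were chosen by their FPKM (fragments per kilobase of transcript, scaled to library size) in the same 3 RNA libraries that are described below. Every level and difference of these genes is therefore a description, and none was tested. The libraries were polyadenylated RNA of C2C12, an established line of C3H mouse myoblasts, cultured in DMEM with 10% fetal bovine serum. In the starved library, cells given the siRNA called siNS spent 4 h in HBSS (Hank's salts) with 10 mM HEPES, which has neither serum nor amino acids. In the knockdown library, cells given siRNA against Foxk1 were not starved, and in the control library, cells given siNS were not starved. Foxk1 is a forkhead repressor that acts with the Sin3A scaffold, and the study profiled expression after starvation or after depletion of Foxk1 against the same control. There was 1 library per group, so the spread between replicates is unknown and no difference has a replicate check.

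FoxO factors are forkhead activators that are held out of the nucleus when growth factors drive PI3K and Akt, and that enter it when serum is withdrawn. Several of the 9 genes are known FoxO targets in other cells, and some of their products slow growth. Ypel2, Ypel3 and Ypel5 encode small zinc-binding proteins of the Yippee family, Hbp1 and Bcl6 transcriptional repressors, and Ccng2 an unconventional cyclin that opposes division. Klhl24 encodes a BTB-kelch adaptor of a CUL3 ubiquitin ligase, Pik3ip1 a membrane inhibitor of PI3K, and Cited2 a partner of CBP and p300 that limits HIF-1.

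Each level below is the deposited mean FPKM with its deposited 95% limits. A gene is called apart between a pair of libraries where these limits do not overlap, which compares the libraries and not the conditions. Log2 fold changes were taken on FPKM + 1, a scale on which changes of low genes come out too small, while ratios are of plain FPKM. Rows under 1 FPKM in both libraries of a comparison were left out of it, and all 9 genes were above that level in all 3 libraries. Foxk1 stood at 16.1 FPKM in the starved, 5.15 FPKM in the knockdown and 9.09 FPKM in the control library, the ratio of the knockdown to the control library being 0.567 and that of the starved to the control library 1.77, both with limits apart. All 8 myoblast marker genes found reached 1 FPKM in every library, led by Des at 403 FPKM in the starved, 520.0 FPKM in the knockdown and 485 FPKM in the control library. Their summed level was 688, 890 and 805 FPKM in the same order, and they did not move one way. After starvation Myod1 (10.7 FPKM in the starved, 70.1 FPKM in the control library) and Myog (6.02 and 14.2 FPKM) were lower apart and Myf5 (29.6 and 16.8 FPKM) higher apart. After knockdown Myog (45.4 FPKM in the knockdown, 14.2 FPKM in the control library) and Tmem8c (21.7 and 8.5 FPKM) were higher apart and Met (11.8 and 19.95 FPKM) lower apart. Adipocyte markers summed to at most 0.471 FPKM in any library, with Lep and Plin1 at 0 in each, and endothelial markers to at most 0.390 FPKM. Blood and macrophage markers summed to 4.20 FPKM in the starved, 1.37 FPKM in the knockdown and 2.60 FPKM in the control library, nearly all of it Cd68, with Emr1 at 0 in each. Bone and cartilage markers summed to 1.04, 10.8 and 5.55 FPKM in that order, most of it Dmp1 (0.763, 10.6 and 5.29 FPKM), with Ibsp at 0 in each. The part of these differences in the results below was not tested, and in bulk RNA fewer cells of a type and less RNA per cell cannot be told apart.

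The promoter windows are shown first because the group is named for a forkhead pathway. RefSeq windows of build GRCm38.p6, from 250 bases before to 50 bases after a start site, matched 8 of the 9 genes, all but Klhl24, with 2 windows each for Bcl6 and Ypel5. The forkhead motif GTAAACA, searched on both strands, occurred in the windows of Hbp1 and Ypel3, that is in 2 of 10 windows, against 3.65% of all 32851 windows. The insulin response element CAAAACA occurred in Ccng2 alone, against 6.28% of all windows. Capitals mark these matches, and the E-box CACGTG in Cited2, which is printed as the gene that was not higher after starvation. Sequences run 5′ to 3′ in the direction of the gene.

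Hbp1, chr12:31950246-31950495, minus strand: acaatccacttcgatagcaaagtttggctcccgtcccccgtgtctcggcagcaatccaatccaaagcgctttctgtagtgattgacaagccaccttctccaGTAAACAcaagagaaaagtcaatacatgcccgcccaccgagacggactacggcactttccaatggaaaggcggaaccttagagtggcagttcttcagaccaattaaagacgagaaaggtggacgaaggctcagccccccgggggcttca
Ypel3, chr7:126776976-126777005, plus strand: gctggtctcggtGTAAACAagtcgaggcgg
Ccng2, chr5:93267323-93267572, plus strand: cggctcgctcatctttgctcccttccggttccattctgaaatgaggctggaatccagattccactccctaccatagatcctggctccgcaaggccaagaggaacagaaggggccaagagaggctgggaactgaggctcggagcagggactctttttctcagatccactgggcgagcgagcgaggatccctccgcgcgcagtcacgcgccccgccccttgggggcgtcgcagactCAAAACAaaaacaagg
Cited2, chr10:17722978-17723227, plus strand: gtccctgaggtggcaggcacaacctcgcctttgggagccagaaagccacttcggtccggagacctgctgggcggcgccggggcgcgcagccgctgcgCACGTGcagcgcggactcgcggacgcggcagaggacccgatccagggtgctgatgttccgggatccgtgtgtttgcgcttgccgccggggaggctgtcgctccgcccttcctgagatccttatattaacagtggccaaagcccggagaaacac

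In Hbp1 the forkhead motif lay at positions -149 to -143 from the start site, and in Ypel3 past the start, at 26 to 32, so its printed stretch covers only 30 bases around the match. The element in Ccng2 lay at -16 to -10. The E-box occurred in 3 of the 10 windows, that of Cited2 and 1 each of Bcl6 and Ypel5, against 7.15% of all windows. The motif TGACGT, a part of the cyclic AMP element, occurred in 1 window of Bcl6 alone, against 7.51%, and the ATF4 element TGATGNAA in none of the 10 windows, against 3.97%. No matches overlapped in these windows. Windows of Ypel2 and Pik3ip1 held none of the 5 motifs. The GC content of the 10 windows ran between 51.7% and 76.3% with a median of 64.7%, against a median of 52.7% over all windows. A match is a description of letters, not a binding site.

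The first comparison asked how expression differed after starvation. Of the 9 genes, 8 were higher in the starved library than in the control with limits apart, where 12.2% of 11396 expressed rows were higher in this way. The same values chose the genes, so nothing is read from that contrast. At least 2-fold higher were 7 of the 9, against 3.12% of rows, and none was at least 2-fold lower. The median log2 fold change was 1.84 for the 9 genes and -0.01 for all expressed rows. Cited2 was the exception, being lower with overlapping limits.

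The second comparison asked how expression differed after depletion of Foxk1. Of the 9 genes, 5 were higher after knockdown than in the control with limits apart, namely Ypel2, Ypel3, Hbp1, Klhl24 and Pik3ip1, against 8.89% of 11357 expressed rows. Of these, Ypel3, Hbp1 and Klhl24 were at least 2-fold higher, where 2.61% of rows were, and with a pseudocount of 5 none of the 9 was. The median log2 fold change was 0.56 for the 9 genes and 0.02 for all expressed rows. Bcl6 was the only one of the 9 below the control, with overlapping limits. The control library is shared by both comparisons, so an error in it would move both.

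**Figure D1:**
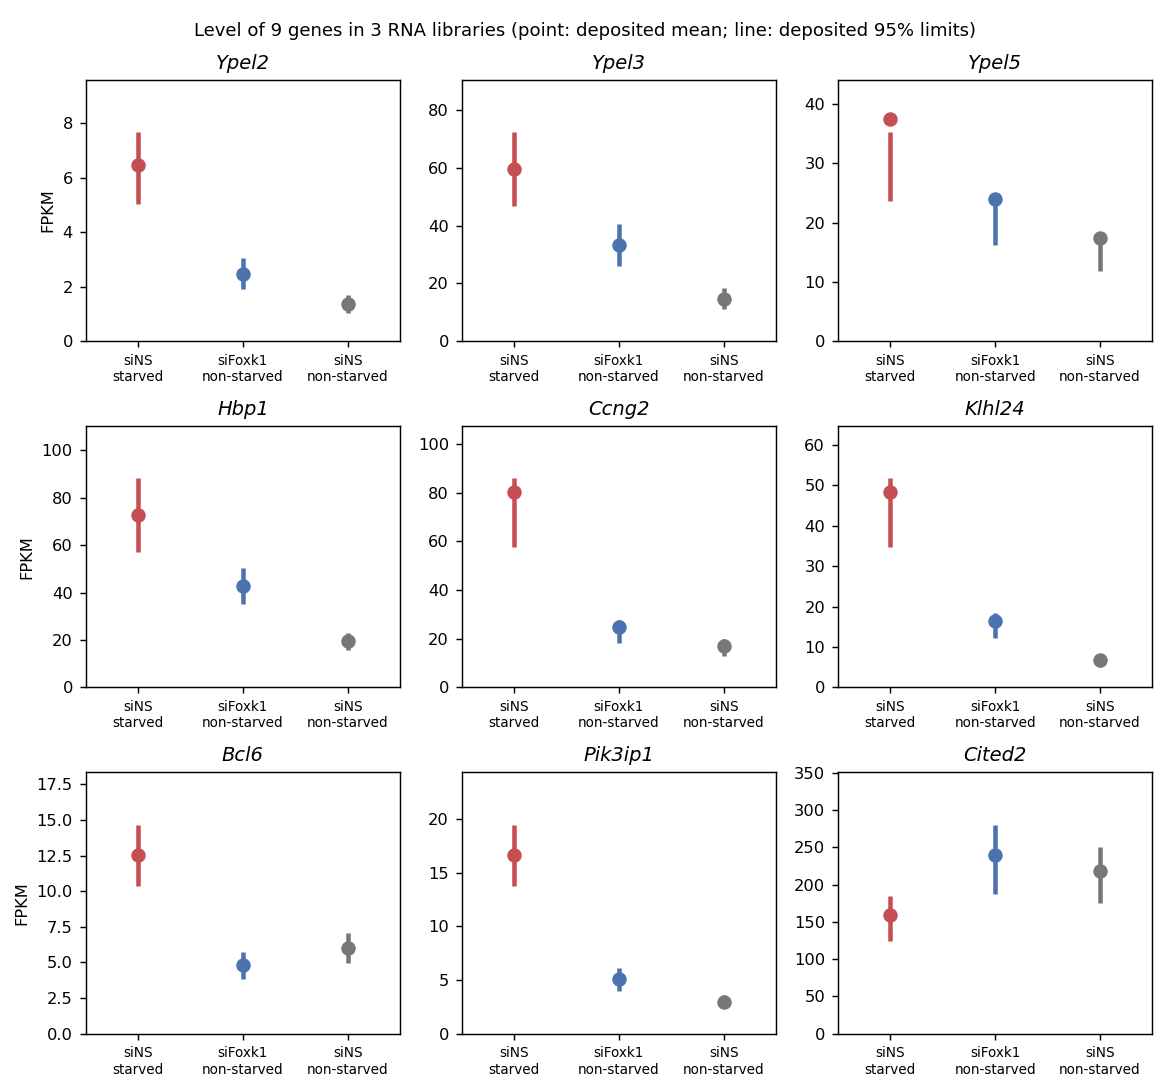
Level of each of the 9 genes in FPKM (vertical axes, each from 0 and on its own scale) in the starved, knockdown and control libraries. Points are deposited means and lines deposited 95% limits, with 1 library per group; the starved library is highest for every gene except Cited2, and the points of Ypel5 lie above their lines in the starved and control libraries.

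Among the Yippee genes, Ypel3, whose human counterpart is induced by p53 and slows growth, was the most abundant in the starved and knockdown libraries. Ypel3 stood at 59.7 FPKM (95% limits 46.9 to 72.4) in the starved, 33.3 FPKM (25.9 to 40.6) in the knockdown and 14.6 FPKM (11.3 to 18.3) in the control library. The limits were apart in all 3 pairs of libraries, with the starved library highest. Its FPKM was 4.08 times the control in the starved library and 2.27 times the control in the knockdown library. The deposited limits allow ratios between 2.56 and 6.40 for the starved and between 1.42 and 3.59 for the knockdown library.

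Ypel2 was the lowest of the 9 genes in every library. It stood at 6.46 FPKM (5.05 to 7.68) in the starved, 2.49 FPKM (1.92 to 3.04) in the knockdown and 1.37 FPKM (1.05 to 1.69) in the control library, again with all 3 pairs of limits apart. The ratio to the control was 4.71 for starvation and 1.81 for knockdown, and at such levels the added 1 FPKM reduces the log2 fold changes, which were 1.65 and 0.56. In the control library Ypel2 lay above only 3.44% of the rows that reached 1 FPKM, and in the starved library above 26.6%.

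Ypel5, whose human counterpart is a subunit of the CTLH ubiquitin ligase, differed least among the 3 Yippee genes. It stood at 37.6 FPKM (23.6 to 35.3) in the starved, 24.1 FPKM (16.2 to 24.3) in the knockdown and 17.4 FPKM (11.9 to 17.3) in the control library. The deposited mean thus lay above its own upper limit in the starved and control libraries, as it did in 1.48% of all rows of the starved, 1.26% of the knockdown and 1.54% of the control library. These shares are over all 22988 rows, those below 1 FPKM included. By the limits, the starved library was apart from the control and the knockdown library overlapped with it. The ratio to the control was 2.16 in the starved library. The midpoints of the limits were 29.4 FPKM in the starved and 14.6 FPKM in the control library, in plain FPKM still just over 2-fold. On the FPKM + 1 scale the log2 fold change was 1.07 with means and 0.96, just under 2-fold, with midpoints. The use of midpoints was chosen after seeing the data.

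The family relatives differed among themselves. Ypel4 stood at 7.02 FPKM (5.19 to 8.85) in the starved, 2.06 FPKM (1.16 to 2.96) in the knockdown and 1.32 FPKM (0.536 to 2.12) in the control library, the starved library being apart from both others. Ypel1 was at 0.953, 2.36 and 0.751 FPKM in the same order, with limits overlapping in all pairs. Reads can be shared among Yippee genes where their coding sequences are alike, and how the authors assigned such reads is not given in the sources used here.

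Hbp1, which encodes an HMG-box repressor that binds the Sin3 scaffold and is known to act on cyclin D1, was among the highest of the 9 in each library. It stood at 72.6 FPKM (57.3 to 88.2) in the starved, 42.9 FPKM (35.2 to 50.6) in the knockdown and 19.5 FPKM (15.8 to 23.2) in the control library. All 3 pairs of limits were apart. The ratio to the control was 3.72 in the starved library, where the limits allow 2.47 to 5.59, and 2.20 in the knockdown library, where they allow 1.52 to 3.20.

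Bcl6, a BTB zinc-finger repressor best known in germinal-centre B cells, had an order of libraries found in no other of the 9 genes. Cited2 also had an order of its own. Of 11562 rows at 1 FPKM or more in any library, 18.6% had the order of Bcl6, 22% that of Cited2 and 17.5% that of the other 7 genes. Bcl6 stood at 12.5 FPKM (10.4 to 14.7) in the starved, 4.79 FPKM (3.86 to 5.71) in the knockdown and 6.04 FPKM (4.98 to 7.09) in the control library. The starved library was apart from both others, and the knockdown and control libraries overlapped, as they did for Ccng2. The ratio to the control was 2.07 for starvation and 0.793 for knockdown. On the FPKM + 1 scale the starved log2 fold change was 0.94, just under 2-fold, and 1.04 with a pseudocount of 0.1.

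Ccng2, which encodes cyclin G2, and Pik3ip1 had like patterns, with a large difference after starvation and a small one after knockdown. Ypel2 had this pattern too, with ratios to the control of 4.71 for starvation and 1.81 for knockdown. Ccng2 stood at 80.2 FPKM (57.8 to 85.9) in the starved, 24.7 FPKM (18.3 to 27.5) in the knockdown and 17.0 FPKM (12.7 to 19.8) in the control library. The starved library was apart from both others at 4.72 times the control, while the knockdown library overlapped with the control at 1.45 times its level. Pik3ip1, whose product holds back the catalytic subunit of PI3K, stood at 16.6 FPKM (13.7 to 19.5) in the starved, 5.05 FPKM (3.99 to 6.13) in the knockdown and 3.0 FPKM (2.36 to 3.63) in the control library. All 3 pairs of limits were apart for Pik3ip1, with ratios to the control of 5.54 for starvation and 1.68 for knockdown.

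Klhl24 had the largest fold changes of the 9 genes in both comparisons with the control. It stood at 48.5 FPKM (34.7 to 51.8) in the starved, 16.4 FPKM (12.3 to 18.4) in the knockdown and 6.76 FPKM (5.12 to 7.46) in the control library, with all 3 pairs of limits apart. The ratio was 7.17 in the starved library, with limits that allow 4.66 to 10.1, and 2.42 in the knockdown library, with limits that allow 1.65 to 3.60. With a pseudocount of 5 its knockdown log2 fold change (0.86) was below those of Ypel3 (0.96) and Hbp1 (0.97).

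Cited2, which encodes the CBP and p300 partner, was the most abundant in every library and the only one lower after starvation. Cited2 stood at 159 FPKM (124 to 185) in the starved, 240.1 FPKM (188 to 281) in the knockdown and 218 FPKM (175 to 251) in the control library. Limits overlapped between the control and each of the other libraries, at ratios of 0.730 for the starved and 1.10 for the knockdown library. Cited2 made up 32.3% of the summed FPKM of the 9 genes in the starved library, 61.0% in the knockdown and 71.8% in the control library. The other 8 genes summed to 334 FPKM in the starved, 154 FPKM in the knockdown and 85.7 FPKM in the control library.

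**Figure D2:**
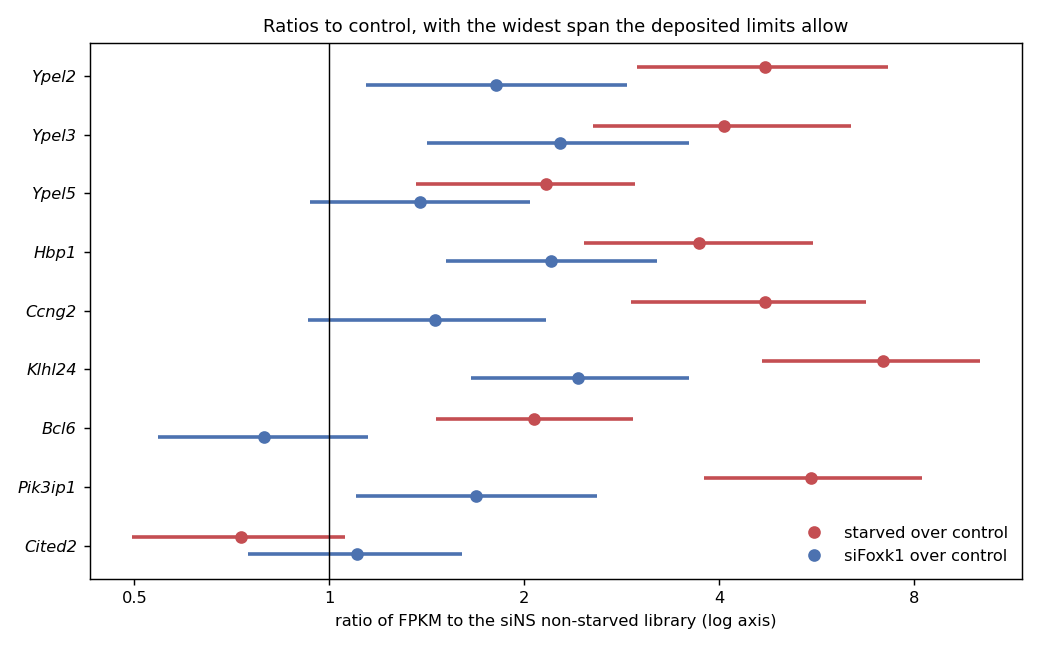
Ratio of the starved (red) and of the knockdown library (blue) to the control library in FPKM for each gene, on a log axis. Points are ratios of deposited means and lines run from the smallest to the largest ratio the deposited 95% limits allow; for the starved library 8 of 9 lines lie wholly above 1, and for the knockdown library 5 of 9.

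Ranked by log2 fold change among the 11396 rows of the starved comparison, Klhl24 was at place 26 from the top, Ccng2 at 41, Pik3ip1 at 45, Ypel3 at 55, Hbp1 at 62 and Ypel2 at 78. Ypel5 at 289, Bcl6 at 406 and Cited2 at 9665 lay further down. Among the 11357 rows of the knockdown comparison, Klhl24 was at 195, Ypel3 at 209 and Hbp1 at 228. Pik3ip1 at 848, Ypel2 at 963, Ccng2 at 1096 and Ypel5 at 1386 followed, with Cited2 at 3970 and Bcl6 at 9197. Ccng2 thus stood above Ypel3 and Hbp1 after starvation and below them after knockdown. Pik3ip1 did so too, but with a pseudocount of 5 its starved log2 fold change of 1.43 was below those of Ypel3 (1.72) and Hbp1 (1.66). The ratios to the control that the limits allow overlapped among these genes in both comparisons. After starvation they ran from 2.92 to 6.74 for Ccng2, 2.56 to 6.40 for Ypel3 and 2.47 to 5.59 for Hbp1.

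**Figure D3:**
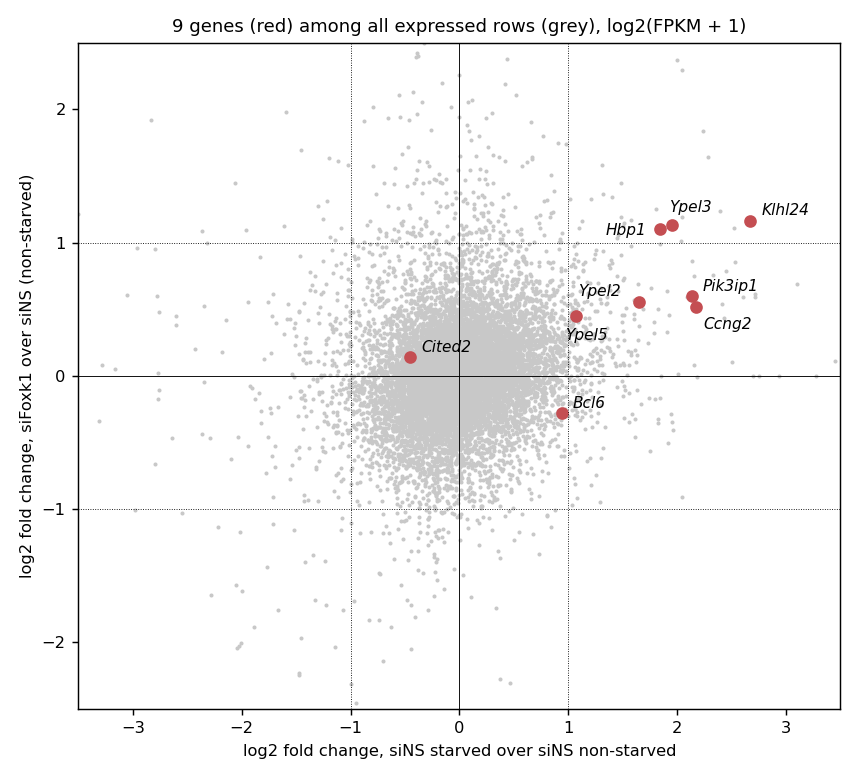
Log2 fold change of FPKM + 1 in the starved (horizontal) and the knockdown library (vertical), each over the same control library, for 11562 rows at 1 FPKM or more in any library (grey) and the 9 genes (red). Dotted lines mark 2-fold and 100 rows lie beyond the axes; Klhl24, Ypel3 and Hbp1 lie past 2-fold on both axes, and Cited2 sits among the bulk of rows.

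The starved and the knockdown library, which differ both in siRNA and in starvation, share no control library in a direct comparison. Of the 9 genes, 7 were higher in the starved than in the knockdown library with limits apart, against 13.3% of 11478 expressed rows, and 5 were at least 2-fold higher, against 4.03%. The median log2 fold change was 1.10 for the 9 genes and -0.02 for all expressed rows. The 5 were Ypel2, Ccng2, Klhl24, Bcl6 and Pik3ip1, with ratios of 2.60, 3.25, 2.96, 2.62 and 3.29 of the starved to the knockdown library. For Ypel3 and Hbp1 the ratios were 1.79 and 1.69, with limits apart. Ypel5 overlapped at a ratio of 1.56. Cited2 was lower in the starved library with limits apart, at a ratio of 0.663, where 13.7% of rows were lower in this way. That call rests on a gap between 185 and 188 FPKM and was lost when the libraries were scaled to the same upper quartile or the same total FPKM, and under both scalings Ypel5 became apart.

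In 5 genes, Ypel2, Ypel3, Hbp1, Klhl24 and Pik3ip1, the limits of all 3 libraries were apart in the order starved, knockdown, control. Among 11562 rows at 1 FPKM or more in any library, 0.493% had that order with all limits apart. The genes were chosen on these values and the control library enters 2 of the 3 pairs, so this is a description with no test.

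Within a library, FPKM allows levels of different genes to be compared per length. In the control library Cited2 was followed by Hbp1, Ypel5, Ccng2 and Ypel3, which lay between 19.5 and 14.6 FPKM with each neighbour overlapping the next. Klhl24, apart from Ypel3, overlapped with Bcl6, and Pik3ip1 and Ypel2 followed, each apart from the gene before it. In the starved library the order after Cited2 was Ccng2, Hbp1, Ypel3, Klhl24 and Ypel5, each overlapping the next, then Pik3ip1 and Bcl6, which overlapped, and Ypel2. In the knockdown library it was Hbp1, Ypel3, Ccng2, Ypel5 and Klhl24, each overlapping the next, then Pik3ip1 and Bcl6, which overlapped, and Ypel2. Pik3ip1 thus stood apart below Bcl6 in the control library, and not in the others. The distance of a limit from the midpoint of the limits ran, over the 9 genes, from 15.6% to 21.4% of the mean in the starved, from 17.0% to 22.4% in the knockdown and from 15.6% to 23.9% in the control library.

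A list of 32 other FoxO targets, without these 9 genes, had 26 expressed members. It was drawn up with earlier results of these data known, as were the lists below, so their counts are descriptions. After starvation 19 were higher with limits apart and 1, Klf2, was lower, where 12.2% of all rows were higher and 10.9% lower apart. The median log2 fold change was 0.91. The largest were those of the growth arrest gene Gadd45a (3.10), the glucose uptake inhibitor gene Txnip (2.72) and Fbxo32 (2.29), the muscle ubiquitin ligase gene. After knockdown 9 of the 26 were higher apart, led by Fbxo32 (1.65), the mitophagy kinase gene Pink1 (1.19) and the stress-response gene Sesn3 (0.87), and 1 was lower apart, against 8.89% and 7.13% of all rows. The median was 0.24. The lower gene was Cdkn1b, which encodes the CDK inhibitor p27. Cdkn1b stood at 68.8 FPKM (49.5 to 73.6) in the starved, 17.5 FPKM (12.7 to 19.2) in the knockdown and 27.3 FPKM (20.6 to 29.8) in the control library, so it was higher apart after starvation and lower apart after knockdown. Between the starved and the knockdown library directly, 14 of the 26 were higher apart and 2 lower, against 13.3% and 13.7% of all rows, with a median of 0.66 and with Gadd45a (2.41), Txnip (2.13) and Cdkn1b (1.92) leading.

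The FoxO genes themselves differed between the libraries. Foxo3 stood at 20.7 FPKM (17.4 to 24.1) in the starved, 8.44 FPKM (6.78 to 10.1) in the knockdown and 7.31 FPKM (5.96 to 8.66) in the control library, apart in the starved library alone. Foxo1 stood at 7.78 FPKM (5.92 to 8.96) in the starved, 14.1 FPKM (11.1 to 16.6) in the knockdown and 6.08 FPKM (4.85 to 7.10) in the control library, apart in the knockdown library alone. Foxo4 at 11.3, 7.63 and 7.22 FPKM and Foxo6 at 6.22, 3.09 and 2.27 FPKM, in that order, were higher apart in the starved library only. Of 26 expressed genes of the PI3K, Akt and FoxO pathway, 8 were higher apart after starvation and 0 lower, against 12.2% and 10.9% of all rows, with a median log2 fold change of 0.16. Foxo3 (1.39), Tsc1 (1.20), which restrains mTORC1, and Foxo6 (1.14) led them. After knockdown 3 of 25 were higher apart, near the 8.89% of all rows, and 0 lower, with a median of 0.08. They were Foxo1 (1.09), the PI3K regulatory subunit gene Pik3r1 (0.94) and the insulin receptor substrate gene Irs2 (0.62). Set directly against knockdown, starvation had 6 of 26 higher apart and 3 lower, against 13.3% and 13.7% of all rows, with a median of 0.19, led by Foxo3 (1.20) and Tsc1 (1.03).

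Genes of cell cycle exit, such as CDK inhibitors, pocket proteins and Myc antagonists, numbered 27 expressed. After starvation 10 were higher apart and 2 were lower apart (Tfdp1 and Hes1), against 12.2% and 10.9% of all rows, with a median log2 fold change of 0.37. Cdkn1b (1.31), the translation inhibitor gene Pdcd4 (1.24) and the Myc antagonist gene Mnt (1.19) led them. After knockdown 4 were higher and 4 lower apart, against 8.89% and 7.13% of all rows, with a median of 0.18, and the largest differences were those of the antiproliferative gene Btg2 (1.57), the Myc antagonist gene Mxd4 (1.15) and Pdcd4 (0.91). In the direct comparison of starved with knockdown, 6 were higher apart and 2 lower, against the same 13.3% and 13.7%, with a median of 0.33 and the largest differences in Cdkn1b (1.92), Btg2 (-1.85) and Hes1 (-1.34). Of 19 proliferation genes, 1 was higher and 6 were lower with limits apart after starvation, against 12.2% and 10.9% of all rows. The median was -0.20. The knockdown library had 0 of them higher and 17 lower apart, against 8.89% and 7.13% of all rows, with a median of -0.72. Between the starved and the knockdown library directly, 9 of the 19 were higher apart in the starved one and 1 lower, against 13.3% and 13.7%. The median was 0.52, and Top2a (1.19), Aurkb (0.90) and Mki67 (0.88) led the higher ones. Ccnd1, the cyclin D1 gene that HBP1 is known to repress, led the lower genes in both comparisons with the control. It stood at 47.4 FPKM (39.6 to 55.3) in the starved, 62.0 FPKM (52.6 to 71.3) in the knockdown and 192 FPKM (166 to 218) in the control library. Ccne1 (-1.71) and Mcm4 (-0.74) followed in the starved, and Ccne1 (-1.11) and Ccnb1 (-0.91) in the knockdown library.

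**Figure D4:**
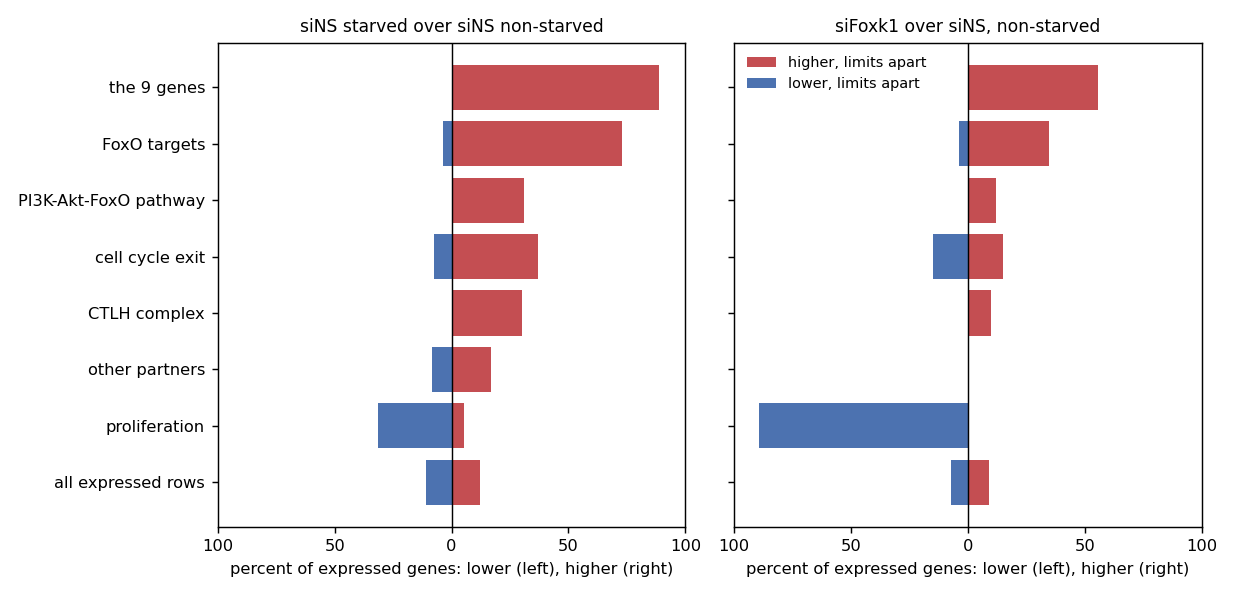
Percent of expressed genes of each list that were higher (red, to the right) or lower (blue, to the left) than the control with deposited limits apart, in the starved library (left panel) and the knockdown library (right panel). Of the 9 genes 8 and 5 were higher, of other FoxO targets 19 and 9 of 26, and of proliferation genes 6 and 17 of 19 were lower; the last row gives the shares of all expressed rows.

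Of 10 genes of the CTLH ligase, to which YPEL5 belongs in human cells, 3 were higher apart in the starved library, where 12.2% of all rows were, with a median log2 fold change of 0.27. They were Rmnd5a (0.89), Gid4 (0.86) and Ranbp10 (0.51). Rmnd5a (0.63) alone was higher apart after knockdown, with a list median of 0.19, and Gid4 (0.57) alone in the direct comparison of starved with knockdown, with a list median of 0.05. These counts of 1 in 10 are near the 8.89% and 13.3% of all rows that were higher apart. Of 12 other partners, 2 were higher apart in the starved library, Sin3a (0.57) and the acetyltransferase gene Ep300 (0.43), and 1 was lower apart, near the 12.2% and 10.9% of all rows. None was apart after knockdown, where 8.89% of all rows were higher and 7.13% lower in this way. Directly between starved and knockdown 3 were higher apart, against 13.3% of all rows, and 1 was lower apart, near the 13.7% of all rows. Ppp2r5c (0.58) and Tfap2a (0.57) were among the higher ones. Tfap2a, at 1.67 FPKM in the starved and 0.801 FPKM in the knockdown library, passed the filter only through the starved library. The medians of these partners were 0.23 after starvation, 0.02 after knockdown and 0.18 in the direct comparison. Of 7 expressed genes that the encoded proteins are known to repress in other cells, Socs2 (0.61) and Cdkn1a (0.53) were higher apart after starvation. Ccnd1 (-1.99) was lower apart, where 12.2% of all rows were higher and 10.9% lower in this way. After knockdown Socs2 (0.95) was higher apart and 3 were lower, against 8.89% and 7.13% of all rows. Among the lower were Ccnd1 (-1.62) and the glucose transporter gene Slc2a1 (-0.74). None of the 7 was apart between the starved and the knockdown library, where 13.3% of all rows were higher and 13.7% lower apart. The medians were -0.08, -0.02 and 0.05 in that order.

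Relatives of Ccng2, Bcl6 and Cited2 varied. The cyclin G1 gene Ccng1 stood at 61.7 FPKM in the starved, 41.5 FPKM in the knockdown and 66.6 FPKM in the control library, overlapping with the control in the starved and lower apart in the knockdown library. The cyclin I gene Ccni stood at 122, 97.9 and 78.2 FPKM in that order, higher apart in the starved library. Bcl6b stood at 0.623 FPKM in the starved, 2.41 FPKM in the knockdown and 2.90 FPKM in the control library, lower apart in the starved library where Bcl6 was higher. Cited1 was at 1.12, 0.925 and 0.667 FPKM with overlapping limits, and Cited4 was listed at 0 in all 3.

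The rows most like the median of the 9 genes, by the Euclidean distance between pairs of log2 fold changes over the 3 libraries, were sought among 8950 single-gene rows at 5 FPKM or more in any library. They were Klf11 at a distance of 0.06, Bcl2l11 at 0.10, Stbd1 at 0.13, Ttyh2 at 0.13 and Ypel4 at 0.16, from a median of 1.84 for starvation and 0.56 for knockdown. Klf11 stood at 24.9 FPKM in the starved, 9.40 FPKM in the knockdown and 6.35 FPKM in the control library. Bcl2l11, which encodes the BH3-only protein BIM and stands in the FoxO target list, stood at 19, 7.28 and 4.34 FPKM in that order. Likeness over 3 libraries says nothing of shared control.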

How the data were processed

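RNA of 3 libraries was analysed, 1 per group, grouped by sample title. Per the file headers, the authors deposited a mean FPKM and lower and upper 95% limits for each gene symbol. Build mm9, Cuffdiff, Cufflinks 2.1.1, Bowtie2 2.1.0 and TopHat2 2.0.9 are named, without roles, in the submitters' processing notes. Not given in the sources used here are how limits were computed, the annotation, strand and any pooling; read depth is unknown. FPKM are shares of each library, so a change of a few abundant genes moves all others.

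FPKM were used as deposited. 1 row with limits in the wrong order was left out. The pseudocount was 1, the filter 1 FPKM in at least 1 of 2 libraries and the fold threshold 2. With 1 library per group no test was run. The genes, 8 lists of related genes, markers and motifs were chosen with earlier results of these data known, and 7 genes stand in more than 1 list. The naming rule covered the 9 genes, all family relatives, up to 3 genes apart with the largest change per list and comparison, and the 5 rows nearest to the median and Foxk1. Foxo4, Klf2, Tfdp1 and the levels of Cdkn1b were added after their values were seen. Some genes that the rule names are not reported here. Promoter sequences are from RefSeq (GRCm38.p6). The ChIP regions, in mm9 coordinates, were not set beside these genes because no gene positions of that build were used here. Steps were tested on simulated data. matplotlib 3.10.9, pandas 2.3.3, numpy 2.4.6 and Python 3.11.15 were used.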

Additional observations from a re-analysis of the deposited data

How the results depend on the processing

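Of 135 fold changes of single genes recomputed with other pseudocounts, scalings or midpoints, 125 stayed on the same side of 2-fold, 8 went under it, 2 passed it and none changed direction. Of the 9 genes, the number at least 2-fold higher in the starved than in the control library was 7, and between 5 and 8 with other pseudocounts, filters, scalings and a 1.5-fold threshold. In the knockdown over the control library it was 3, and 0 with a pseudocount of 5, where Hbp1 (0.97), Ypel3 (0.96) and Klhl24 (0.86) lay just under 2-fold. In the starved over the knockdown library it was 5, 3 with a pseudocount of 5 and 8 at 1.5-fold. The count lower with limits apart in that comparison was 1, and 0 under either scaling, which raises the starved library. The forkhead motif stood in 2 genes, and in 1 with the 250 upstream bases alone, since the match in Ypel3 lies past the start. Over all rows, those 2-fold higher numbered 356 in the starved comparison, 154 with a pseudocount of 5, 562 with 0.1 and 1175 at 1.5-fold, and 296, 148, 438 and 879 in the knockdown comparison in the same order. In the direct comparison they numbered 463, 180, 745 and 1435. No paired analysis was possible because each group had 1 library, and no replicate could be left out. Depth is unknown, so levels as low as those of Ypel2 and Ypel1 carry no counting limit beyond the deposited one.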
